A study of Mus musculus with 32 samples.

Results

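Cisplatin was given to mice, and 10 genes of the NF-kB response were followed in kidney, liver, lung and spleen. They comprised the inhibitor and feedback genes Nfkbia, Nfkbiz and Tnfaip3, the subunit genes Relb, Nfkb1 and Nfkb2, the adhesion receptor gene Icam1, and the chemokine genes Cxcl1, Cxcl2 and Ccl2. The genes were taken by symbol and mapped to the identifiers of the files with the GENCODE annotation of GRCm38 (mm10). All 10 were among the 25058 genes listed for every assay.

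NF-kB is a dimer of Rel family proteins that inhibitor proteins hold in the cytoplasm. When a receptor or a damage signal activates the IkB kinase, the inhibitor is phosphorylated and degraded, and the dimer enters the nucleus and binds kappa B sites near its targets. Among those targets are its own inhibitors, which close a feedback loop, and genes that draw leukocytes from the blood, namely chemokines and adhesion receptors of the endothelium.

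All mice were wild-type C57BL/6J females aged 6 to 7 months. Treated mice received 10 mg per kg of cisplatin by intraperitoneal injection, and control mice received the same volume of saline. The methods place the injection at ZT1 and the killing at ZT5, that is, 1 and 5 h after lights on, whereas the sample labels give 2 h after treatment. RNA-seq was made from 2 control and 2 cisplatin libraries per organ. Damage-seq and XR-seq each had 2 cisplatin libraries per organ, and the samples held no control library of these 2 assays. The labels of the lung and spleen RNA-seq libraries were used as corrected by the submitters, who exchanged control and cisplatin. The study describes its replicates as biological.

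Reads on genes numbered from 15619474 to 162270280 per RNA-seq library, from 10658675 to 59779770 per XR-seq library and from 1571167 to 6441367 per Damage-seq library. Each organ held its own markers. Levels are given as CPM, the counts of a gene scaled to a common library total. The summed CPM of 5 kidney markers were 11148 to 16524 in kidney and at most 78.9 elsewhere. The same sums were 70210 to 130320 against at most 415 for 4 liver markers, 64152 to 71726 against at most 24.9 for 4 lung markers, and 963 to 1321 against at most 72.0 for 3 spleen markers. The liver markers stood at 368 CPM in the first cisplatin library of spleen, against 2.71 to 33.2 CPM in the other spleen libraries. In lung and spleen the 2 control libraries differed little beyond the sampling of reads. The index of their spread, in which 1 is sampling alone, was 2.75 in lung and 2.98 in spleen, against 39.3 to 349 in the other 6 pairs. They were therefore summed and counted as 1 sample, and the test there assumed that this sample varied like the cisplatin libraries. On simulated data this design made false calls at a share above the threshold set, so calls in lung and spleen are less certain.

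Upstream sequence is shown for the 3 members called in kidney RNA-seq and for Cxcl2, the neighbour of Cxcl1 on chromosome 5, because kappa B sites are the letters through which NF-kB is known to act. RefSeq promoters of GRCm38.p6 were at hand for 6 of the 10 members, and the windows of 4 lay before the annotated gene start. The others were those of Tnfaip3 and Nfkb2, which lay inside the annotated gene. Capitals mark matches, on either strand, to the kappa B consensus or to the 9 letters GGAATTTCC, with overlaps joined. The windows are written 5′ to 3′ on the strand of the gene. Those of Nfkbia, Cxcl1 and Cxcl2 end at the annotated start of the gene, and that of Icam1 ends upstream of it.
Nfkbia, chr12:55492648-55492897, minus strand: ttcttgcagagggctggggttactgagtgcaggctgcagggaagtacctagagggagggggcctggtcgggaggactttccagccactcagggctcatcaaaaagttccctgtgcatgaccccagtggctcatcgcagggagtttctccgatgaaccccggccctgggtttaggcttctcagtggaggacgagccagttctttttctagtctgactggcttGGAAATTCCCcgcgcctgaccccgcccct
Icam1, chr9:21015690-21015939, plus strand: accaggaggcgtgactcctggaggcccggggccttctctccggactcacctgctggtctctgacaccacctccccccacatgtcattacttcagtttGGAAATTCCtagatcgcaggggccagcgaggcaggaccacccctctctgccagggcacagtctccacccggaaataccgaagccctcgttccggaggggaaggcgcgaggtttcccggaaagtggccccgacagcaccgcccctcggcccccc
Cxcl1, chr5:90890995-90891240, plus strand: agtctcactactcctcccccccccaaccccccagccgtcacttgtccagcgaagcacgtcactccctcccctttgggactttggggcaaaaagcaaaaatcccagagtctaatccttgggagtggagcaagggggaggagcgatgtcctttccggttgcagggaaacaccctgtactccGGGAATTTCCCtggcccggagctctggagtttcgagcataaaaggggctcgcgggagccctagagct
Cxcl2, chr5:90903649-90903870, plus strand: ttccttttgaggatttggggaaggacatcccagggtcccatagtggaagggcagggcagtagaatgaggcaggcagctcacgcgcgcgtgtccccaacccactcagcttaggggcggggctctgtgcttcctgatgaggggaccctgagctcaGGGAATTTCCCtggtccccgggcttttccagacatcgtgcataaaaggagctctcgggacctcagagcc

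The kappa B consensus matched in the windows of Nfkbia, Cxcl1 and Cxcl2 and not in that of Icam1. Of 32851 mouse promoter windows of 250 bases, 3.9% held it. The 9 letters GGAATTTCC, which were chosen after the windows had been seen, were in all 4 windows and in 0.286% of all windows. In Nfkbia the match ended 20 bases before the end of the window, in Cxcl1 57, in Cxcl2 59 and in Icam1 144. A match describes the letters of the reference genome, and no binding was measured.

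In kidney, 3 of the 10 members rose with cisplatin. They were Nfkbia, Icam1 and Cxcl1, one each of the inhibitors, adhesion receptors and chemokines, with changes of 2.44-fold, 2.40-fold and 13.3-fold. In the same test 5.05% of 15471 genes were called and 2.4% were called up. The members were chosen with earlier results of these data known, so comparisons with all genes, here and below, are no test of the set. No member was called in liver, lung or spleen. Changes with cisplatin within an organ were tested by edgeR's quasi-likelihood method for a size beyond 0.4 on the log2 scale. Differences between organs and between strands were tested against 0. Throughout, a gene was called at a Benjamini-Hochberg adjusted p under 0.05 over all genes tested. These are bulk organs, so more cells of a type and more RNA per cell cannot be told apart.

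**Figure D1:**
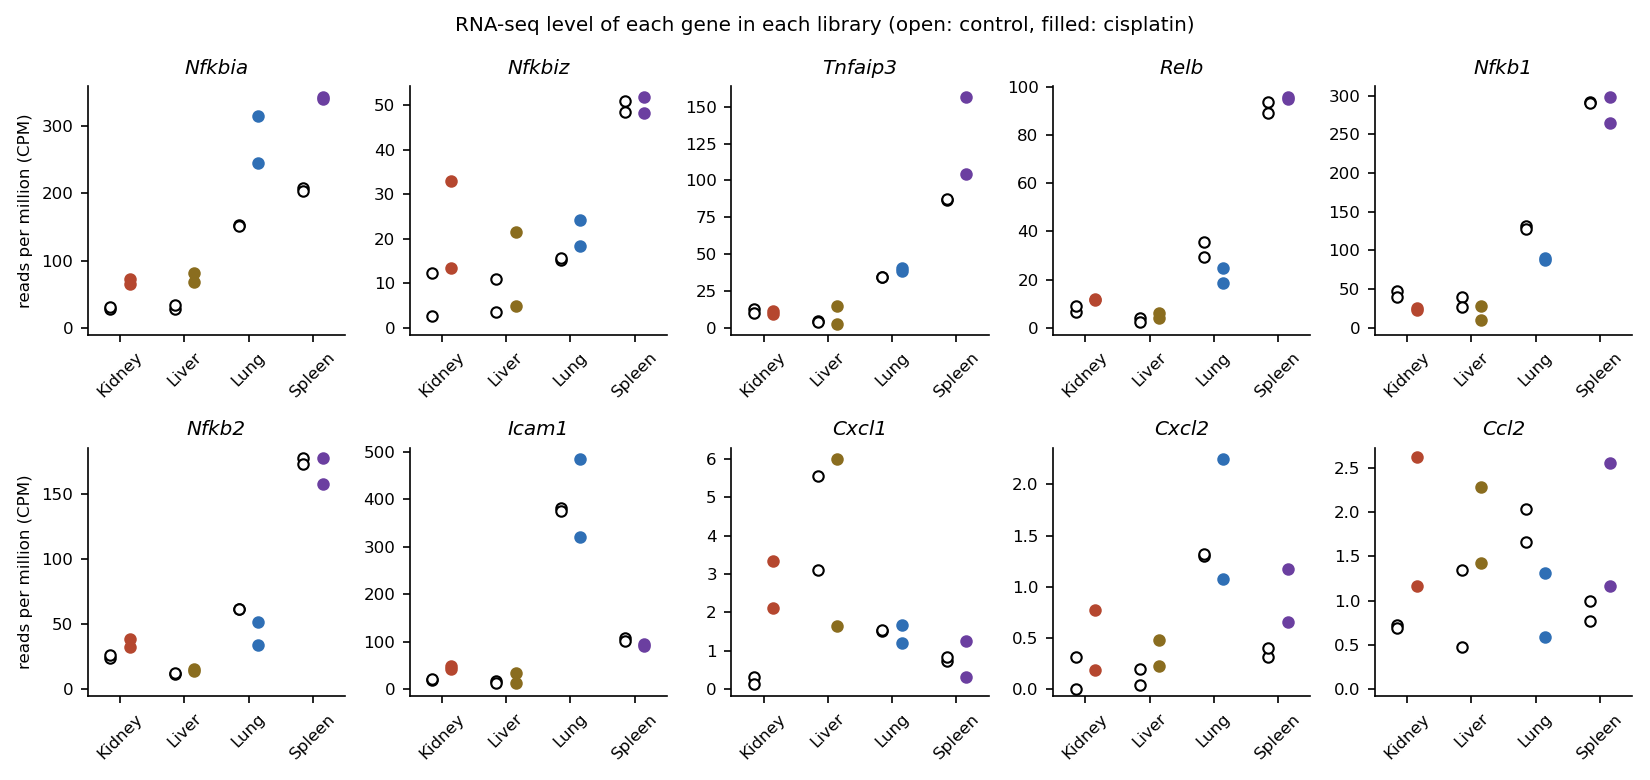
RNA-seq level of the 10 genes in each of the 16 libraries, in CPM on a linear axis for each gene (open circles: control, filled circles: cisplatin). For Nfkbia the filled circles lie above the open circles in every organ, whereas for Cxcl1 they do so in kidney only.

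Nfkbia (chr12:55489410-55492647, minus strand) encodes IkB-alpha, the rapidly induced inhibitor that returns NF-kB to the cytoplasm. In kidney it had 27.9 and 30.4 CPM in the control libraries and 64.7 and 72.2 CPM in the cisplatin libraries. In liver the values were 28.0 and 33.1 CPM in controls and 68.7 and 81.0 CPM after cisplatin. The cisplatin libraries were above the controls in both organs, by about the same factor.

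In lung Nfkbia was at 152 and 151 CPM in controls and at 245 and 315 CPM after cisplatin, and in spleen at 208 and 204 CPM and at 341 and 344 CPM. It was the only member whose 2 cisplatin libraries lay above both controls in all 4 organs. Its log2 fold changes were 0.76 ± 0.18 (SE) in spleen, 0.88 ± 0.21 in lung, 1.33 ± 0.38 in liver and 1.29 ± 0.19 in kidney. The edgeR adjusted p was 0.989 in spleen, 0.207 in lung, 0.356 in liver and 0.0281 in kidney. For single organs, the share of genes tested with both cisplatin libraries above both controls was 20.2% (liver), 24.3% (kidney), 28.9% (spleen) and 34.2% (lung). Within 1 organ this order is therefore common. How many genes had it in all 4 organs was not counted. The 8 neutrophil markers summed to 60.1 and 62.0 CPM in the lung controls and to 102 and 129 CPM after cisplatin, and to 574 and 579 against 703 and 1102 CPM in spleen. None of them was called, and their part in the values of Nfkbia was not tested.

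Nfkbiz (chr16:55811375-55838899, minus strand), an atypical nuclear IkB that helps to switch on secondary NF-kB targets, varied widely between libraries of a group. In kidney it was at 12.2 and 2.53 CPM in controls and at 32.8 and 13.4 CPM after cisplatin, a log2 fold change of 1.76 ± 0.73 (edgeR adjusted p = 0.285). The groups did not overlap, although the lower cisplatin library was close to the higher control. In each kidney group the first library was the higher. With no filter on low counts the gene was called (edgeR adjusted p = 9.06e-06). It was also called with the replicate number as a block (edgeR adjusted p = 1.97e-07), although what that number marks is not stated. Without the first control library the log2 difference was 3.15 and was called. In liver its groups overlapped, with 10.97 and 3.503 CPM against 21.5 and 4.78 CPM.

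Tnfaip3 (chr10:19000910-19015657, minus strand) encodes A20, a ubiquitin-editing enzyme that ends NF-kB signalling. Its kidney libraries overlapped, with 12.4 and 9.67 CPM in controls and 11.4 and 9.10 CPM after cisplatin (log2 fold change -0.05 ± 0.24, edgeR adjusted p = 0.995). In spleen it was at 86.6 and 87.6 CPM in controls and at 104 and 156 CPM after cisplatin, which did not pass the test (log2 fold change 0.60 ± 0.26, edgeR adjusted p = 1.00). In liver 1 cisplatin library, at 14.8 CPM, stood apart from the other, at 2.39 CPM, and the controls were at 4.42 and 3.48 CPM.

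Of the subunit genes, none was called in any organ. Nfkb1 (chr3:135584655-135691547, minus strand), which encodes the p105 precursor of p50, had 47.1 and 40.2 CPM in the kidney controls and 24.8 and 22.6 CPM after cisplatin. Both cisplatin libraries were below both controls, as they were for 32.1% of the genes tested in kidney, and the log2 fold change was -0.82 ± 0.17 (edgeR adjusted p = 0.108). Tested against 0 in place of 0.4, the adjusted p was 0.0363. In lung the gene was at 131 and 127 CPM in controls and at 87.6 and 89.4 CPM after cisplatin (log2 fold change -0.54 ± 0.16, edgeR adjusted p = 0.503).

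Relb (chr7:19606217-19629438, minus strand) and Nfkb2 (chr19:46304320-46312385, plus strand) encode the partners of the non-canonical pathway. In kidney Relb was at 6.47 and 8.79 CPM in controls and at 12.1 and 11.6 CPM after cisplatin, and Nfkb2 at 23.8 and 25.9 CPM and at 38.7 and 32.5 CPM. Both genes had higher values after cisplatin in each kidney library, by 0.68 ± 0.27 and 0.57 ± 0.19 on the log2 scale, and neither passed the test (edgeR adjusted p = 0.379 and 0.365). In lung the order was the opposite, with log2 fold changes of -0.52 ± 0.23 for Relb and -0.53 ± 0.25 for Nfkb2 (edgeR adjusted p = 0.674 and 0.676). Lung libraries of cisplatin mice also held less RNA of lymphocytes. The summed CPM of 5 T cell markers was 125 and 122 in controls and 36.1 and 32.5 after cisplatin, with 4 of 5 called down, and that of 4 B cell markers was 288 and 294 against 92.5 and 68.5, with 4 of 4 called down, in the less certain design of 1 summed control. Their part in the values of Relb and Nfkb2 was not tested. In kidney and in spleen none of these 9 markers was called. Reads of Nfkb2 and of Psd, which overlaps it on the other strand, cannot be told apart, since the RNA library kit does not mark strand.

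Icam1 (chr9:21015985-21028817, plus strand) encodes the receptor on endothelium to which leukocytes adhere. In kidney it was at 18.9 and 20.5 CPM in controls and at 47.8 and 43.3 CPM after cisplatin. The groups lay far apart and the log2 fold change was 1.26 ± 0.18 (edgeR adjusted p = 0.0289). The 5 endothelial markers summed to 320 and 406 CPM in the kidney controls and to 340 and 425 CPM after cisplatin, and none was called. In lung, where Icam1 was highest, it was at 382 and 375 CPM in controls and at 486 and 321 CPM after cisplatin, on both sides of the controls. The gene overlaps the antisense gene Gm47079, and reads of the pair cannot be told apart.

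Cxcl1 (chr5:90891241-90893115, plus strand) encodes a chemokine that draws neutrophils. In the kidney controls it had 6 and 8 reads, or 0.311 and 0.145 CPM, and after cisplatin 52 and 113 reads, or 3.33 and 2.12 CPM. The log2 fold change was 3.73 ± 0.58 (edgeR adjusted p = 0.0251), and the size rests on the 14 reads of the controls. In the other organs its groups overlapped. Liver had 5.54 and 3.09 CPM in controls and 6.00 and 1.65 CPM after cisplatin, lung 1.52 and 1.53 against 1.67 and 1.20 CPM, and spleen 0.723 and 0.825 against 1.25 and 0.321 CPM. Cxcl1 in kidney controls was thus lower than in any control library of the other organs, and its kidney cisplatin libraries lay within the range of the liver.

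Cxcl2 (chr5:90903871-90905938, plus strand), a neutrophil chemokine next to Cxcl1, was near the limit of detection in kidney, with 6 and 0 reads in controls and 12 and 10 reads after cisplatin, and its log2 fold change of 1.99 had a standard error of 1.55 (edgeR adjusted p = 0.638). Ccl2 (chr11:82035571-82037453, plus strand), which draws monocytes, had 14 and 38 reads in the kidney controls and 41 and 62 reads after cisplatin. These correspond to 0.725 and 0.690 CPM against 2.62 and 1.16 CPM, a log2 fold change of 1.43 ± 0.55 that did not pass the test (edgeR adjusted p = 0.262). Markers of the cells that these chemokines draw were not called in kidney. The 8 neutrophil markers summed to 3.99 and 2.09 CPM in controls and to 3.59 and 2.36 CPM after cisplatin, with Camp at 0 in all 4 libraries and Ly6g at 0 to 0.055 CPM. The 7 macrophage markers summed to 175 and 196 CPM and to 242 and 167 CPM. Of the lists, 3 and 6 genes passed the filter on low counts. The sums hide single genes. Cd68, a lysosomal protein of macrophages, was at 3.73 and 5.49 CPM in controls and at 13.4 and 10.2 CPM after cisplatin, with no overlap (log2 fold change 1.38 ± 0.32, edgeR adjusted p = 0.0848), and was named after its values had been seen. The part of these cells in the values of the chemokine genes was not tested.

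**Figure D2:**
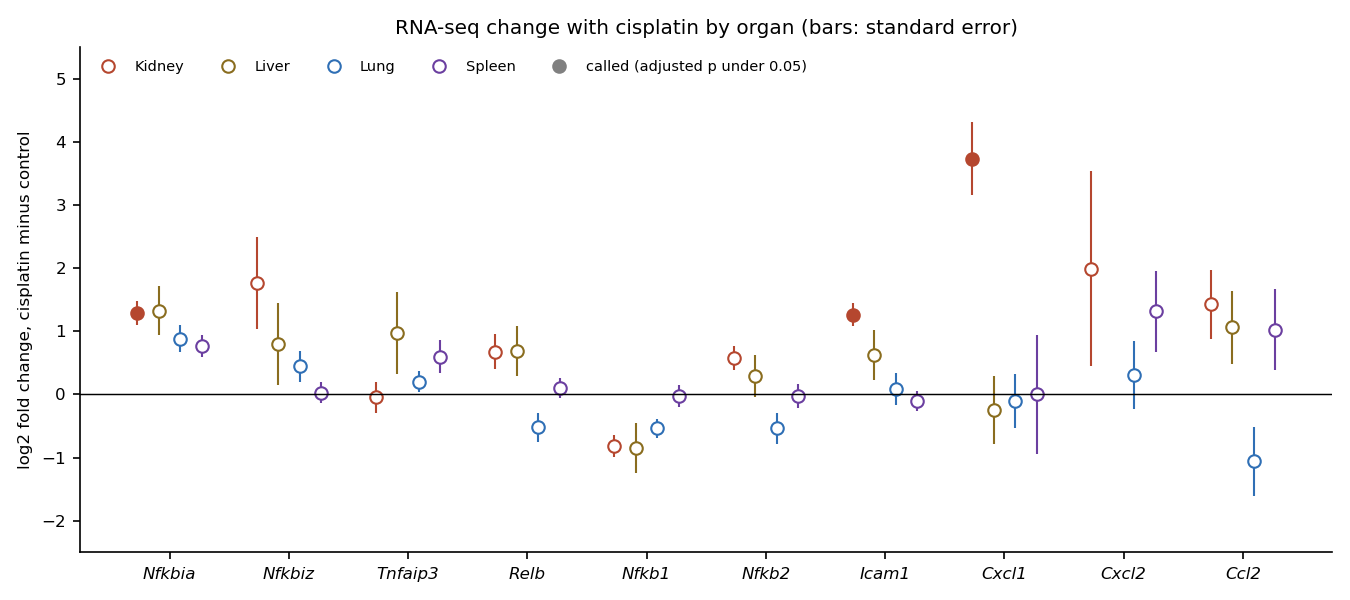
Log2 fold change of each gene, cisplatin minus control, by organ, with its standard error (filled circles: called at an adjusted p under 0.05; Cxcl2 was not tested in liver). The 3 filled circles belong to Nfkbia at 1.29, Icam1 at 1.26 and Cxcl1 at 3.73, all in kidney.

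Both cisplatin libraries lay above both controls for 7 of the 10 members in kidney and below them for 1. In liver 5 were above and 0 below, in lung 3 and 4, and in spleen 5 and 1. The 5 in liver include Cxcl2, which did not pass the filter on low counts, whereas the shares cover only genes tested. Of the genes tested, 32.1% were below in kidney, 18% in liver, 33% in lung and likewise 33.1% in spleen, next to the shares above given with Nfkbia.

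The 10 members, chosen with earlier results known, had a median log2 fold change of 1.28 in kidney, where the median of all genes tested was -0.003. In liver, where 9 members passed the filter on low counts and Cxcl2 did not, the median was 0.69 against 0.03 for all genes. In lung it was -0.01 against 0.03, and in spleen 0.06 against 0.02. In liver 0% of 13868 genes were called by edgeR, while 1287 had an unadjusted p under 0.05 and DESeq2 called 189, none of them a member. In lung 2.09% of 18210 genes and in spleen 0.181% of 17686 genes were called. Nfkbia was the only member with an unadjusted p under 0.05 in liver, and again in lung and in spleen. Over all genes tested, 2373 in lung and 768 in spleen had such a p, and DESeq2 called no member there.

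The calls in kidney depended on the libraries. Without the first cisplatin library of kidney no member was called, with edgeR adjusted p of 0.126 for Nfkbia, 0.207 for Icam1 and 0.117 for Cxcl1. Without the second, Cxcl1 kept its call (0.0265), Nfkbia had 0.112 and Icam1 0.0765, and in 1 fit of all organs Nfkbia had 0.0687 and Icam1 0.0849. DESeq2 called the same 3 genes. In lung Nfkbia was called (adjusted p = 0.0444) when each control library was counted as a sample.

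Whether the change in kidney differed from that in the other organs was tested as an interaction in 1 edgeR fit, against 0 in place of 0.4. No member was called in any of the 3 differences, of which 0.0733% of 19100 genes were called for kidney minus liver, 0.12% for kidney minus lung and 0.304% for kidney minus spleen. Cxcl1 had the largest differences among the members, at 4.02 ± 1.01 log2 units against liver, 3.86 ± 1.08 against lung and 3.86 ± 1.10 against spleen (edgeR adjusted p = 0.262, 0.329 and 0.243). For Nfkbia the differences were -0.02 ± 0.41, 0.41 ± 0.45 and 0.59 ± 0.45. At an unadjusted p under 0.05 stood 1 member against liver, 5 against lung and 2 against spleen, next to 1359, 1408 and 1669 genes in all. With no filter on low counts, Cxcl1 was called in all 3 differences (adjusted p = 0.0318, 0.0443 and 0.0444).

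In control mice the levels of 7 of the 10 members differed between organs, where 69.1% of 19100 genes did. Spleen was highest for the subunits and inhibitors. Per length of transcript, Nfkb1 was at 24.2 ± 0.055 RPKM (CPM per kilobase of exon, SD of 2 libraries) in spleen, 10.7 ± 0.223 in lung, 3.62 ± 0.404 in kidney and 2.72 ± 0.765 in liver, and the lower kidney library, at 3.33, was close to the higher liver library, at 3.26. Relb was at 23.5 ± 0.815 RPKM in spleen, 8.34 ± 1.13 in lung, 1.96 ± 0.423 in kidney and 0.817 ± 0.285 in liver. Nfkbia, the most abundant member per length, was at 128 ± 1.84 RPKM in spleen, 94.3 ± 0.5002 in lung, 19.0 ± 2.25 in liver and 18.1 ± 1.10 in kidney, and its liver and kidney libraries overlapped.

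Icam1 had another order, with 86.8 ± 1.06 RPKM in lung, 23.8 ± 0.962 in spleen, 4.52 ± 0.259 in kidney and 3.25 ± 0.665 in liver. Cxcl1 was highest in liver, at 2.30 ± 0.925 RPKM, followed by lung at 0.813 ± 0.0052, spleen at 0.413 ± 0.038 and kidney at 0.122 ± 0.062. The exons of Cxcl1 and Cxcl2, joined over all their transcripts, cover the whole gene, which lowers their RPKM. For Nfkbiz, Cxcl2 and Ccl2 the level was not called different between organs (edgeR adjusted p = 0.0623, 0.119 and 0.291). Nfkbiz and Cxcl2 were called with each control library as a sample (0.0117 and 0.0244) and with no filter (0.00117 and 0.0298), and Ccl2 in neither.

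Of the other genes of the pathway, 100 were listed in 8 groups, and 99 of them were in the files (other Rel and IkB genes, kinases and adaptors, receptors, ligands, feedback genes, other targets, other chemokines, and the leukocyte receptors of the chemokines and of Icam1). In kidney 4 of the 82 tested rose and 1 fell, or 6.1%, next to 5.05% of all genes, and their median log2 fold change was 0.31. Among the 6 other Rel and IkB genes 1 rose. It was Rela, the p65 subunit, at 37.3 and 47.3 CPM in controls and 147 and 158 CPM after cisplatin (log2 fold change 1.90 ± 0.21, edgeR adjusted p = 0.0142). Among 12 other targets tested 2 rose, namely the stress sensor gene Gadd45b (2.57 ± 0.27, adjusted p = 0.0125) and the early response gene Ier3 (1.32 ± 0.18, adjusted p = 0.0251). Among 9 feedback genes 1 rose, Cflar, an inhibitor of caspase-8 (1.10 ± 0.19, adjusted p = 0.0480).

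The 1 gene that fell was Traf3, 1 of 15 kinases and adaptors and a brake on the non-canonical pathway, at 31.1 and 28.1 CPM in controls and at 12.5 and 11.1 CPM after cisplatin (log2 fold change -1.27 ± 0.19, edgeR adjusted p = 0.0322). None of 8 receptors, 4 ligands, 24 other chemokines and 4 leukocyte receptors tested in kidney was called. Those 4 were the chemokine receptor gene Ccr2 and the integrin genes Itgal, Itgam and Itgb2. In liver none of 79 and in spleen none of 96 pathway genes was called. In lung 1 of 98 was called and it fell. It was Ltb, the lymphotoxin-beta gene of lymphocytes, at 49.5 and 47.3 CPM in controls and at 15.9 and 10.1 CPM after cisplatin (log2 fold change -1.90 ± 0.28, edgeR adjusted p = 0.0351), beside the lower T and B cell markers given above.

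The genes whose RNA followed Nfkbia most closely over the 14 samples, after the mean of each organ had been taken out, were Terf2 (Pearson r = 0.966), Zfp954 (0.962) and H3f3b (0.958). For Cxcl1 they were Arl4c (0.942), Mapk6 (0.940) and C2cd2l (0.932). These samples share organs, depth and treatment, and the values describe likeness only.

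XR-seq sequences the short oligomers that excision repair cuts out around an adduct, and the reads of each gene are counted on either the strand that RNA polymerase reads, the transcribed strand (TS), or its partner, the non-transcribed strand (NTS). Cisplatin binds mainly at neighbouring guanines, so the reads were divided by the number of GG on the strand and are given as CPM per 1000 GG. Transcription-coupled repair acts on the TS, where a stalled RNA polymerase starts it. On the members the TS held more repair than the NTS. The difference was called for 8 of the 10, all with the TS above, where 79.4% of 18875 genes were called and 70.7% with the TS above. The log2 ratio of TS to NTS had a median of 3.23 over the members and 2.78 over all genes. These tests were edgeR fits with the library as a block. For Cxcl2, with 153 TS and 29 NTS reads in the 8 libraries together, and Ccl2, with 99 and 9, the difference was not called (edgeR adjusted p = 0.0800 and 0.137). Organ by organ, 7 members were called in kidney (66.5% of all genes, and 60.5% with the TS above), 7 in liver (61.7% and 54.6%), 7 in lung (70.4% and 63.4%) and also 8 in spleen (69% and 62.2%), each with the TS above. Cxcl2 was called in spleen only (log2 ratio 8.23 ± 3.09, edgeR adjusted p = 0.0493), on 6 and 47 TS reads and 0 NTS reads. Cxcl1, called over all libraries, was called in no organ taken alone (edgeR adjusted p = 0.0511 to 0.4525). On simulated data the XR-seq tests of a strand's signal across organs made false calls at a share above the threshold set. Such calls below are therefore less certain.

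**Figure D3:**
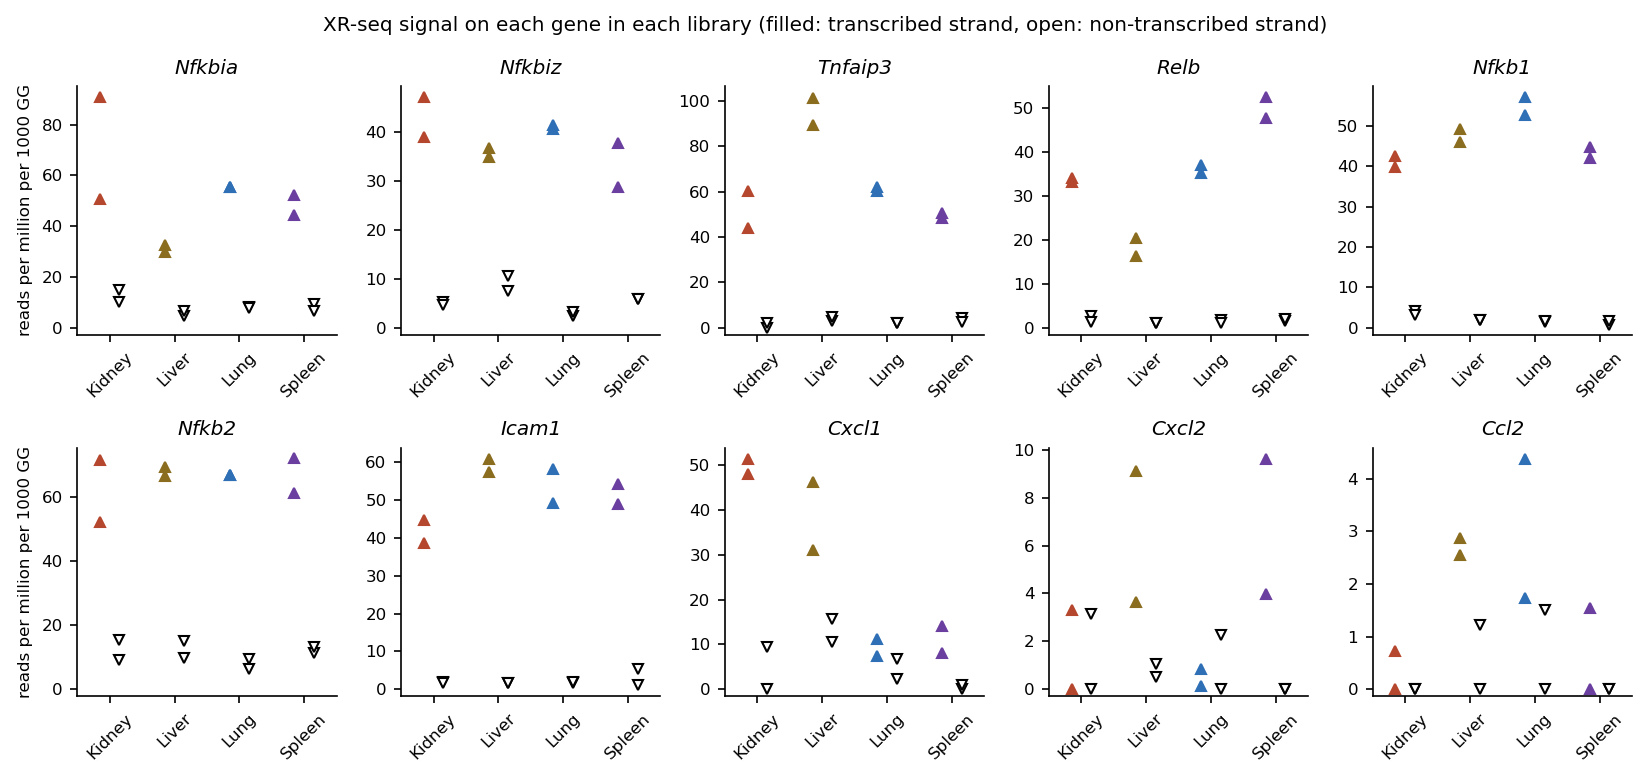
XR-seq signal on each gene in each of the 8 cisplatin libraries, in CPM per 1000 GG on linear axes (filled triangles: TS, open triangles: NTS). For the genes from Nfkbia to Icam1 every filled triangle lies above every open triangle of its organ, while Cxcl2 and Ccl2 have few reads.

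Tnfaip3 had a ratio of 30.2 over the 4 organs (log2 4.92 ± 0.50, edgeR adjusted p = 1.32e-05). The size rests on the kidney libraries, since the log2 ratio was 4.48 without the first and 6.87 without the second. Its TS signal was 48.3 and 50.5 in spleen, 60.1 and 62.1 in lung, 102 and 89.4 in liver and 60.4 and 44.1 in kidney, and the liver libraries were above all the others. The TS signal differed between organs (edgeR adjusted p = 0.000877), while its RNA in cisplatin liver was at 14.8 and 2.39 CPM and lower than in lung and spleen. Without the second kidney library its ratio, too, differed between organs (edgeR adjusted p = 0.00306). In the first kidney library 0 of 923 reads were on the NTS, which allows a share of up to 0.325%, by counting error only.

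Nfkb1, the longest member at 106893 bp, had the most reads of all members. Of its reads, 91.6% (95% Wilson interval 90.9 to 92.4) and 93.2% were on the TS in the kidney libraries, 96.7% and 96.3% in liver, 97.7% and 97.3% in lung, with 98.3% and 96.7% in spleen. The kidney libraries were the lowest. The ratio of TS to NTS was 37.2 in spleen, 37.6 in lung, 26.1 in liver and 11.7 in kidney, and differed between organs (edgeR adjusted p = 0.0137), as it did for 25.7% of all genes. The one other member whose ratio differed was Nfkbiz (edgeR adjusted p = 0.0256), with ratios of 5.68 in spleen, 14.8 in lung, 4.00 in liver and 8.73 in kidney. Its NTS signal was 5.86 and 5.80 in spleen, 2.39 and 3.24 in lung, 7.59 and 10.6 in liver and 5.203 and 4.67 in kidney. Without either liver or either lung library the difference of Nfkbiz was not called (edgeR adjusted p between 0.0772 and 0.147), and without the first lung library that of Nfkb1 was at 0.0582.

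The TS signal of Cxcl1 was 14.1 and 8.17 in spleen, 11.3 and 7.48 in lung, 31.05 and 46.3 in liver and 51.4 and 48.2 in kidney. Both kidney libraries were above all the others, the liver libraries came next, and those of lung and spleen overlapped. The TS signal differed between organs (edgeR adjusted p = 0.00926), and without the second liver library it did not pass (0.0516), nor did the difference between its strands (0.0501 against 0.00865 with all libraries). XR-seq was made after cisplatin only, when the RNA of Cxcl1 was at 3.33 and 2.12 CPM in kidney and 6.00 and 1.65 CPM in liver, against at most 1.67 CPM in lung and spleen. In control mice the kidney had been the organ with the least Cxcl1 RNA. The part of RNA in the TS signal of Cxcl1 was not tested. The counts behind the TS signal were 107 and 152 reads in kidney and 17 and 32 reads in spleen.

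Relb was ordered as in RNA, with a TS signal of 52.4 and 47.8 in spleen, 35.2 and 37.1 in lung, 33.2 and 34.1 in kidney and 16.3 and 20.3 in liver (edgeR adjusted p = 3.79e-05). Spleen was above and liver below all other libraries. Nfkbia had a TS signal of 44.4 and 52.3 in spleen, 55.6 and 55.3 in lung, 32.6 and 29.7 in liver and 50.7 and 91.0 in kidney, so that liver was lowest although its cisplatin RNA was at the level of kidney. Its difference between organs passed here (edgeR adjusted p = 0.0243) but not with TMM scaling (0.142), with DESeq2 (0.135) or without any 1 library of liver or lung (0.0512 to 0.13). Without the first lung library the call of Nfkb1 on the TS was lost too (0.0997). Nfkb2 had a TS signal of 52.0 to 72.0 and a ratio of 6.13, and its organs were not called (edgeR adjusted p = 0.887). Icam1 had a TS signal of 38.6 to 61.0 and a ratio of 27.3. Its organs were not called here (edgeR adjusted p = 0.0624) and were called with TMM scaling (0.00243) and DESeq2 (2.89e-05). Where genes overlap, the NTS of Nfkb2 is the TS of Psd, and the NTS of Icam1 is the TS of Gm47079. The part of Psd and Gm47079 in these NTS signals and ratios was not tested. In all, the TS signal of 5 members differed between organs (64.1% of all genes) and the NTS signal of 2, Nfkbiz and Nfkb1 (33.1% of all genes). On the NTS, Nfkb1 was not called with TMM scaling (0.185) or DESeq2 (0.132), nor Nfkbiz without the second liver library (0.0587).

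Damage-seq reads mark adducts that had not been removed by the time of killing. Here the order of the strands was reversed, with less damage on the TS. The difference was called for 6 of the 10 members, each with the TS below the NTS, where 48.7% of 18875 genes were called and 46% with the TS below. The log2 ratio of TS to NTS had a median of -0.89 over the members and -0.32 over all genes. Nfkbia, Cxcl1, Cxcl2 and Ccl2 were not called. They are short and had 0 to 19 reads per strand and library, and the standard errors of their log2 ratios were 0.51 for Nfkbia, 0.94 for Cxcl1, 0.47 for Cxcl2 and 0.66 for Ccl2. Organ by organ, 3 members were called in kidney (23.5% of all genes, and 23.1% with the TS below), 4 in liver (37.1% and 36.1%), 5 in lung (31.1% and 29.7%) and also 3 in spleen (15.1% and 14.5%), each with the TS below.

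**Figure D4:**
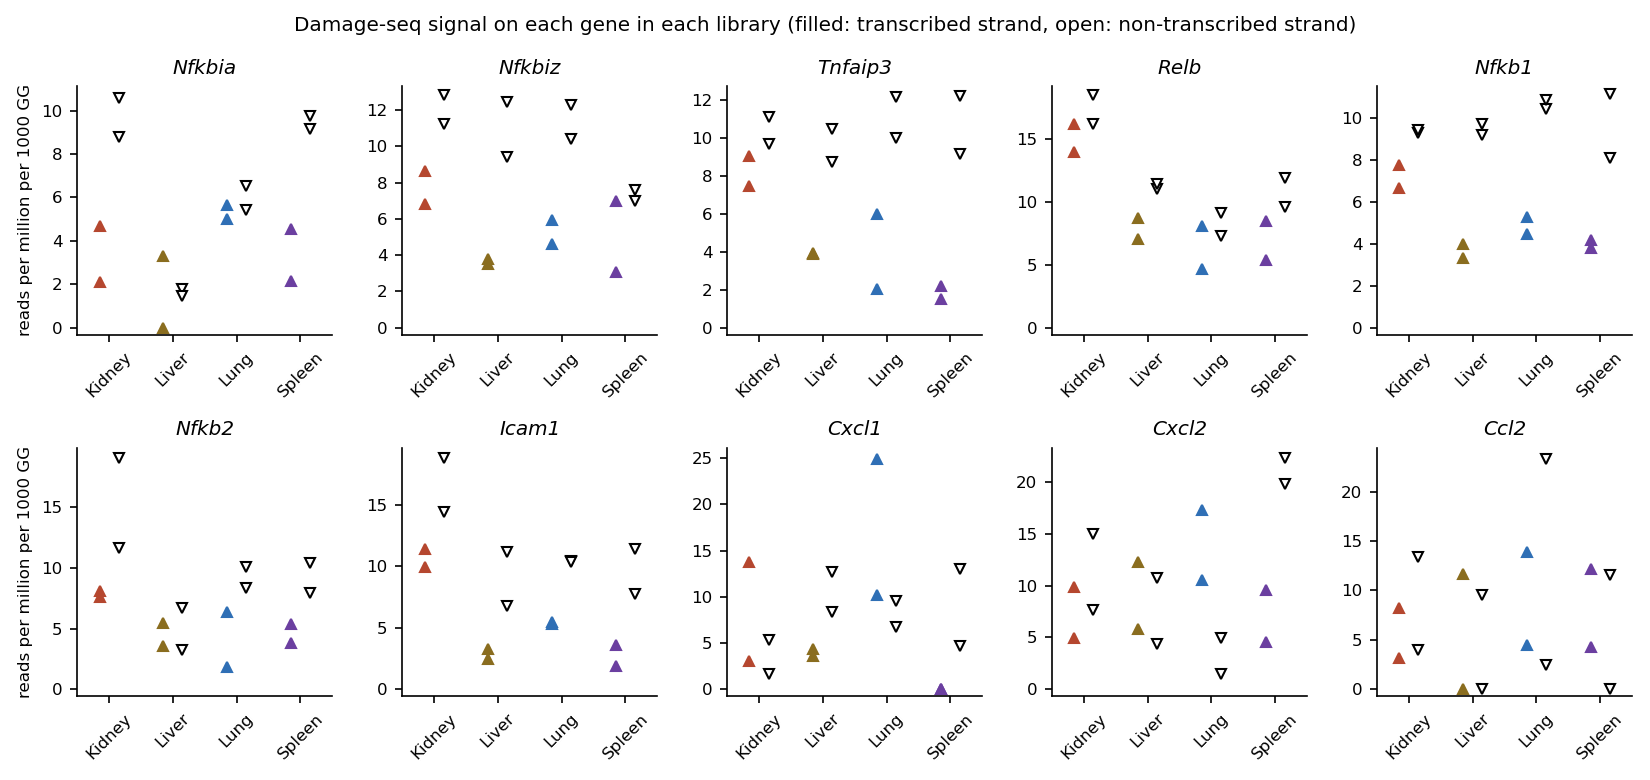
Damage-seq signal on each gene in each of the 8 cisplatin libraries, in CPM per 1000 GG on linear axes (filled triangles: TS, open triangles: NTS). For Nfkbiz, Tnfaip3, Relb, Nfkb1 and Icam1 the TS lies below the NTS in all 8 libraries, and the 3 chemokine genes scatter with no common order.

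Nfkb1 had the most damage reads, 1104 on the TS and 1914 on the NTS. Its TS signal was 4.18 and 3.79 in spleen, 5.27 and 4.45 in lung, 3.99 and 3.30 in liver and 6.63 and 7.77 in kidney, while the NTS signal was 11.1 and 8.06 in spleen, 10.4 and 10.9 in lung, 9.17 and 9.71 in liver and 9.29 and 9.42 in kidney. The organs differed on the TS (edgeR adjusted p = 2.88e-05) and were not called on the NTS (edgeR adjusted p = 0.709). The TS held 0.767 times the NTS signal in kidney, 0.394 in liver, 0.455 in lung, with 0.424 in spleen, and this ratio differed between organs (edgeR adjusted p = 0.000485). Nfkb1 was the only member for which it did, next to 11.3% of all genes. Kidney thus had the highest TS to NTS ratio of damage and the lowest TS to NTS ratio of repair for this gene. Over all genes, too, the median log2 ratio of damage was highest in kidney (-0.24), then spleen (-0.28), lung (-0.30) and liver (-0.46). Medians by library overlapped, at -0.31 and -0.19 for kidney and -0.27 and -0.28 for spleen. The all-gene median of repair was lowest for liver (2.17), followed by kidney (2.73). The damage ratios of Tnfaip3, Relb and Icam1 were also highest in kidney, and those of Nfkbiz and Nfkb2 were not. The part of this general order in the ratio of Nfkb1 was not tested.

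**Figure D5:**
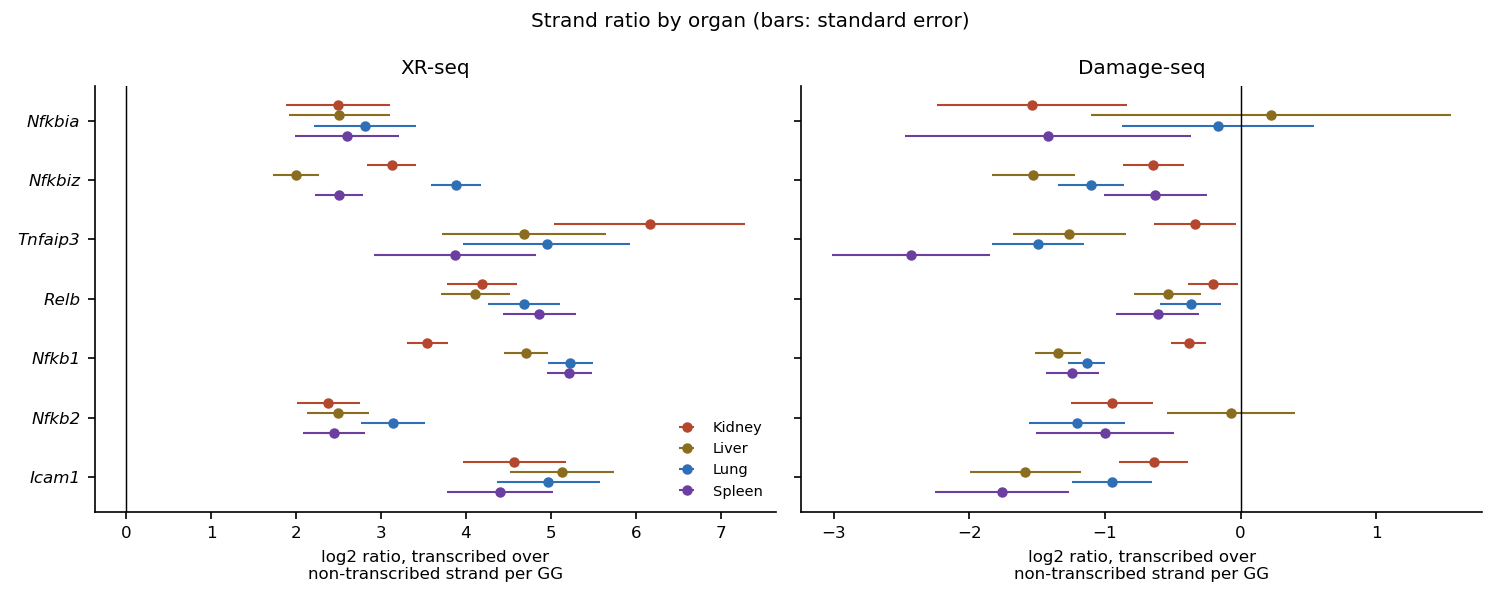
Log2 ratio of TS to NTS signal per GG for 7 genes in XR-seq (left) and Damage-seq (right), by organ, with the standard error of the fit (the 3 chemokine genes are left out for their few reads). For Nfkb1 the kidney ratio is the lowest in XR-seq, at 3.54, and the nearest to 0 in Damage-seq, at -0.38.

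For Icam1 the TS signal of damage was 1.91 and 3.63 in spleen, 5.45 and 5.30 in lung, 2.48 and 3.29 in liver and 9.96 and 11.4 in kidney. Kidney was above all other libraries and the difference between organs was called (edgeR adjusted p = 5.66e-05). Its NTS signal was also highest in kidney, at 18.8 and 14.4, and differed as well (edgeR adjusted p = 0.0276). Relb likewise had its highest damage in kidney on both strands, with 16.2 and 14.0 on the TS and 18.5 and 16.2 on the NTS. The other organs had 4.67 to 8.70 on the TS and 7.26 to 11.9 on the NTS. The organs differed on both strands (edgeR adjusted p = 2.67e-05 and 0.000274). Medians over all genes were also highest in kidney, at 7.73 and 8.06 on the TS and 10.1 and 9.18 on the NTS. Elsewhere these medians were 5.81 to 7.02 and 8.39 to 9.09. The part of this general order in the signals of Icam1 and Relb was not tested. Tnfaip3, with 149 TS and 332 NTS reads, had a ratio of 0.384 over the organs (log2 -1.38 ± 0.21, edgeR adjusted p = 1.22e-08), the lowest among the 6. For Nfkb2 the ratio was 0.572 and the TS lay below the NTS in 7 of 8 libraries, with the first liver library as the exception. The overlaps with Psd and Gm47079 limit the NTS signals of Nfkb2 and Icam1 here too.

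The TS signal of damage differed between organs for 5 members (34.7% of all genes) and the NTS signal for 3, Relb, Nfkb2 and Icam1 (19.5% of all genes). On the TS, Nfkbiz was not called with TMM scaling (0.281), with DESeq2 (0.552) or without any 1 library of kidney or liver (0.0637 to 0.306), and Tnfaip3 was not called with DESeq2 (0.222) or without the second kidney library (0.136). On the NTS, Nfkb2 and Icam1 were not called with DESeq2 (0.0837 and 0.362), without the first kidney library (0.17 and 0.519) or without the first liver library (0.067 and 0.118), nor was Icam1 with TMM scaling (0.1). In kidney, the organ in which RNA of Nfkbia and Cxcl1 rose, damage on these genes rested on 4 to 19 reads per strand and library for Nfkbia and on 1 to 10 for Cxcl1. The signal of Damage-seq and XR-seq without cisplatin was not analysed here, and the reads count adducts and repair products relative to the library and not per cell.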

How the data were processed

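RNA-seq, XR-seq and Damage-seq libraries were compared in 4 organs of the mouse. The deposited files hold read counts per gene, for the 2 strands of each gene apart in Damage-seq and XR-seq. For these counts the authors' processing notes name the mm10 genome and the tools cutadapt, BWA, STAR, Picard and featureCounts. A line that named no gene was dropped from 16 files. Samples were grouped by their labels. RNA-seq counts were fitted organ by organ with edgeR 4.0.16 in R 4.3.3 (TMM scaling, filter on low counts, quasi-likelihood test for a size beyond 0.4 on the log2 scale, Benjamini-Hochberg adjustment). Pairs of libraries with an index of spread at or below 3 were summed. For XR-seq and Damage-seq, counts were fitted with offsets for GG and library total, over 18875 genes that held 10 or more GG on one strand or the other and 20 reads per assay. DESeq2 1.42.0 was an alternative. The scripts were tested on simulated data, where the share of false calls was above the threshold set in the RNA-seq tests of liver, lung and spleen and in the XR-seq tests across organs. Wilson intervals and limits for 0 reads cover counting error only. The members and lists were chosen with earlier results of these data known. Genes outside the members were named if they had the largest change among those called in a pathway list and organ (at most 3), or were among the 3 most correlated with Nfkbia or Cxcl1 (log2 of CPM + 1).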

Additional observations from a re-analysis of the deposited data

How the results depend on the processing

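With 2 libraries per group, the counts of called genes moved with the setting, and so did the values of some members. Over the settings, the log2 fold change of Cxcl2 in kidney ran from 0.54 to 7.12. That of Tnfaip3 in liver ran from -0.48 to 1.68. No called value turned its direction, while some values that were not called did. In kidney 782 genes were called, 1711 when tested against 0, 1896 with no filter, and 123 to 2005 with 1 library left out. In liver 0 were called by edgeR, 189 by DESeq2, 155 with no filter, 518 in 1 fit of all organs, and 22 to 1840 with 1 library left out. In lung 381 were called, 804 against 0, 1089 with no filter, 70 in 1 fit of all organs, 1606 with each control library as a sample, and 0 to 339 with 1 library left out. In spleen 32 were called, 85 by DESeq2, 58 with no filter, 62 with each control library as a sample, and 22 to 97 with 1 library left out. For kidney minus liver, lung and spleen, 14, 23 and 58 genes were called. The counts were 127, 280 and 501 with each control library as a sample, 9, 10 and 27 with library totals, 78, 160 and 181 with no filter, and 1 to 87, 5 to 21 and 16 to 112 with 1 library left out. In the strand difference across organs, 4859 genes were called in XR-seq, and 2028 to 9432 with 1 library left out. In Damage-seq 2130 were called, 1264 with a length limit, and 758 to 2332 with 1 library left out. On the NTS across organs, 6240 were called in XR-seq, and 4206 to 9980 with 1 library left out. In Damage-seq 3677 were called, 1329 by DESeq2, and 1231 to 4097 with 1 library left out. On the TS in Damage-seq 6553 were called, and 3082 by DESeq2. The cause of these shifts was not tested. Leaving out a cisplatin library of lung or spleen was fitted in 1 fit of all organs.

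The sources used here do not say what libraries with the same replicate number share. Between control and cisplatin, the differences between replicates correlated at 0.238 in spleen, 0.083 in lung, 0.502 in liver and 0.607 in kidney. With the number as a replicate block, 3182 genes were called in kidney and 1015 in liver. With each control library as a sample and the replicate block, 1914 were called in lung, 172 in spleen, and 294, 764 and 1295 for kidney minus liver, lung and spleen. In the tests across organs the replicate block gave 11849 genes on the TS and 5995 on the NTS of XR-seq, and 6663 and 3515 in Damage-seq. Of the members, it added calls of Nfkbiz and Nfkb1 in kidney and of Nfkbia in liver. In lung Nfkbia was called with each control library as a sample, without the block and with it. With both changes, Cxcl1 was called for kidney minus liver, lung and spleen (edgeR adjusted p = 0.0448, 0.0361 and 0.0269), Nfkbiz for kidney minus lung and spleen (0.0406 and 0.0118), Relb for kidney minus lung (0.0296) and Icam1 for kidney minus spleen (0.0294).

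In liver, Nfkbia had an edgeR adjusted p of 0.00237 and Nfkb1 of 0.0147 without the first cisplatin library, and Tnfaip3 had 0.0257 without the second. In kidney Nfkbiz was called with no filter and without the first control library, as was Cxcl2 in the latter. The few reads of the chemokine genes limit what Damage-seq can show of them.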
